A study of Mus musculus with 8 samples.

Results

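The hippocampus of C57BL/6 mice was profiled 12 h after status epilepticus, a prolonged seizure state, and set against control hippocampus. Messenger RNA covered all 20258 gene symbols of the deposited table, of which 16783 had a fold at 12 h, and small RNA covered 1251 miRNA names, of which 422 had enough tags to be tested. The 12 h group and the control group each had 2 poly(A) libraries, which makes 4 of the 8 poly(A) libraries of the study, and each library pooled cDNA from 2 animals. The 12 h and control small RNA libraries were likewise 4 of 8, and the labels do not tie them to the same pools. Strain was the same in both groups. No source used here gives the animals' sex or age or the way the seizures were induced.

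Seizures drive a wave of transcription in hippocampal neurons that starts with immediate early transcription factors such as Fos, Egr1 and Npas4 and passes on to effector genes such as Bdnf and Homer1. Feedback inhibitors of MAP kinase signalling and genes induced by stress hormone follow the same stimulus. miRNAs are short RNAs that guide Argonaute proteins to messenger RNAs, mainly through the seed, bases 2 to 8 of the mature strand. Each miRNA hairpin can give a mature strand from its 5p and its 3p arm.

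The mature sequences of the miRNAs the results turn on are given here 5′ to 3′ from RefSeq (GRCm38.p6), with the seed in capitals. The first 5 had an adjusted p under 0.1 in the test below, and let-7c-5p, let-7f-5p, miR-132-3p and miR-212-3p are shown because they share a seed with another.
miR-690: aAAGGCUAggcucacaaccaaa
miR-30e-5p: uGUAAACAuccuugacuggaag
miR-379-5p: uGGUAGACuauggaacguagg
miR-19b-3p: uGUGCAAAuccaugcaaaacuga
let-7b-5p: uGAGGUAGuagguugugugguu
let-7c-5p: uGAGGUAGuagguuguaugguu
let-7f-5p: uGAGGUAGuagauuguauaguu
miR-132-3p: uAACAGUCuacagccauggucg
miR-212-3p: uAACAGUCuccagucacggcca

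The 12 h small RNA libraries held 970366 and 3325374 miRNA tags, and the control libraries 1106436 and 1649297. A count of 3 tags was worth 3.09 and 0.902 CPM, tags scaled to a common library total, at 12 h, against 2.71 and 1.82 CPM in control, so differences among rarer miRNAs were not detectable at this depth. Levels below are CPM scaled by edgeR's TMM factors. The median log2 difference of all tested miRNAs was -0.04 with these factors and 0.10 with library totals, a shift of 0.14.

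Of the 422 miRNAs tested, 1 was higher at 12 h (0.237%) and 1 was lower (0.237%) at an adjusted p under 0.05 by edgeR's quasi-likelihood test with Benjamini-Hochberg adjustment. The unadjusted p was under 0.05 for 84. The median size of a difference was 0.26 on the log2 scale, and 19 miRNAs differed by at least 1. The groups did not overlap for 95 miRNAs that were higher (22.5%) and 117 that were lower (27.7%).

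miR-145a-3p is the less abundant arm, in control tissue, of a hairpin that smooth muscle and pericytes are known to make, at chr18:61807481-61807502 on the minus strand of mm9, in no other annotated gene. It had 89.2 and 71.3 CPM in the 12 h libraries, against 28.2 and 37.2 CPM in control libraries. Both 12 h values lay above both control values. The log2 difference was 1.26 ± 0.21 (SE, n = 2 each), with an adjusted p of 0.0365 by edgeR's quasi-likelihood test. Leaving out either control library or either 12 h library ended this call, with adjusted p between 0.0770 and 0.277 in the same edgeR test.

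miR-690 lies at chr16:28600026-28600047 on the minus strand, in no other annotated gene. It had 172 and 158 CPM at 12 h, against 356 and 491 CPM in control. Both 12 h libraries were below both control libraries. The log2 difference was -1.36 ± 0.23 (SE, n = 2 each), with an adjusted p of 0.0365 by edgeR. The call was lost without control library 8 (0.0921), 12 h library 1 (0.187) or 12 h library 2 (0.193), and was kept without control library 7 (adjusted p = 0.0428 by edgeR).

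A further 6 miRNAs had an adjusted p between 0.05 and 0.1 and did not pass. miR-379-5p, from the large miRNA cluster of the imprinted Dlk1-Dio3 region (chr12:110947275-110947295, plus strand), was singled out after its values were seen. It had 1821 and 1874 CPM at 12 h, against 409 and 614 CPM in control. The groups were far apart, and the 2 control libraries also differed from each other. The log2 difference was 1.85 ± 0.38 (SE, n = 2 each), with an adjusted p of 0.0725 by edgeR. In edgeR, miR-379-5p passed with only the 12 h and control libraries fitted (adjusted p = 0.00792) and with library totals (adjusted p = 0.0390). It also passed by DESeq2 (adjusted p = 0.00816). Leaving out either control library gave a log2 difference of 1.57 or 2.18, and leaving out either 12 h library 1.88 or 1.83. In none of these fits with 1 library left out did miR-379-5p pass. Why it did not pass in the fit over all libraries was not tested. miR-30e-5p, within an intron of Nfyc (chr4:120445265-120445286, minus strand), had 6949.6 and 7493 CPM at 12 h, against 4748 and 5129.8 CPM in control, with an adjusted p of 0.0716 by edgeR. miR-126-5p, an endothelial miRNA in Egfl7 (chr2:26446885-26446905, plus strand), had 1582 and 1698 CPM at 12 h, against 1076 and 959 CPM in control (adjusted p = 0.0725 by edgeR). All 3 of these were higher in both 12 h libraries than in either control library. miR-19b-3p, a member of the miR-17-92 cluster, had 28.4 and 26.1 CPM at 12 h, against 13.6 and 13.3 CPM in control (adjusted p = 0.0725 by edgeR). let-7b-5p (chr15:85537755-85537776, plus strand) had 3767 and 3529 CPM at 12 h, against 5066 and 5102 CPM in control (adjusted p = 0.0725 by edgeR). let-7i-3p had 14.2 and 11.0 CPM at 12 h, against 26.2 and 22.6 CPM in control (adjusted p = 0.0924 by edgeR). In each of these the 12 h and control libraries did not overlap.

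**Figure D1:**
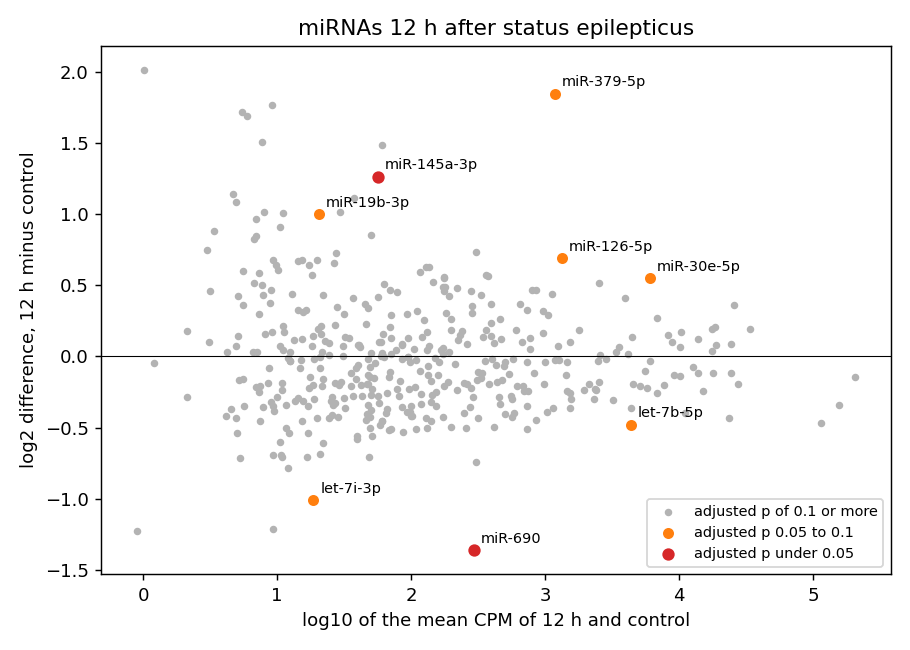
Log2 difference of each of the 422 tested miRNAs (12 h minus control, vertical) against the log10 of its mean CPM (horizontal), with 2 libraries a group. The 2 red points, miR-145a-3p and miR-690, have an adjusted p under 0.05, and the 6 orange points lie between 0.05 and 0.1.

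No activity-regulated miRNA passed the test, which called only 1 miRNA higher and 1 lower of all 422 (0.237% each). A list without a call therefore shows nothing particular to it. miR-132-3p, induced through CREB in neurons, had 1398 and 1407 CPM at 12 h, against 1763 and 1695 CPM in control, a log2 difference of -0.30 (adjusted p = 0.173 by edgeR). Both 12 h libraries were below both control libraries. Its neighbour miR-212-3p, with the same seed, had 345 and 359.5 CPM at 12 h, against 349.6 and 369.7 CPM in control (adjusted p = 0.931 by edgeR), so the groups overlapped. Of 20 tested members of the activity-regulated list, 3 were above and 6 below both control libraries, beside 22.5% above and 27.7% below over all 422, none was called, and the median log2 difference was -0.03, against -0.04 over all. The 28 tested brain-enriched miRNAs had a median of -0.06, with 9 above and 6 below both control libraries, beside the same shares over all, and none called. miR-124-3p, the main neuronal miRNA, had 5149 and 5703 CPM at 12 h, against 5106 and 6524 CPM in control.

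No inflammatory miRNA passed the test either, beside the same 0.237% called higher and 0.237% called lower over all 422. miR-21a-5p had 962 and 1014 CPM at 12 h, against 621 and 806 CPM in control, a log2 difference of 0.47 that did not pass (adjusted p = 0.144 by edgeR). It passed with no low-count filter (adjusted p = 0.0188 by edgeR) and by DESeq2 (adjusted p = 0.0407). It did not pass with library totals (adjusted p = 0.0828 by edgeR) or with only the 12 h and control libraries (adjusted p = 0.175 by edgeR). The difference was 0.28 without control library 7, 0.68 without control library 8, 0.52 without 12 h library 1 and 0.43 without 12 h library 2. In none of these fits with 1 library left out did miR-21a-5p pass. miR-146a-5p, which restrains NF-kappaB signalling, had 2268 and 2468 CPM at 12 h, against 2337 and 3030.2 CPM in control (adjusted p = 0.564 by edgeR). None of the 8 tested members of the myeloid and inflammation list was called. Against 10 d in the same edgeR fit, 11 miRNAs were lower at 12 h (2.61%) and 1 was higher (0.237%), miR-146a-5p among the lower.

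Markers of other tissues and cell types were also measured. The red blood cell miRNA miR-451a had 65.9 and 81.1 CPM at 12 h, against 70.9 and 65.1 CPM in control, and miR-486-5p had 0 tags in every library. The muscle miRNA miR-206-3p had 0 and 1 tag at 12 h and 0 and 1 in control. The 2 muscle miRNAs tested had more tags and went opposite ways. miR-133a-3p had 86 and 278 tags at 12 h, against 103 and 190 in control (log2 difference -0.42). miR-1a-3p had 65 and 212 tags at 12 h, against 46 and 77 in control (log2 difference 0.42). The liver miRNA miR-122-5p had 0 and 10 tags at 12 h, against 3 and 4 in control. Of 7 tested miRNAs of choroid plexus and epithelium, 3 were above and 1 below both control libraries, beside 22.5% above and 27.7% below over all 422. miR-204-5p of that list had 7133 and 7327 CPM at 12 h, against 7500.5 and 9132 CPM in control, and miR-429-3p had 38.5 and 31.5 CPM at 12 h, against 16.5 and 23.9 CPM in control (adjusted p = 0.155 by edgeR). Vessel-wall miRNAs other than miR-145a-3p were not called: miR-143-3p, from the same cluster, had 17996 and 20629.8 CPM at 12 h, against 15287 and 21215 CPM in control. None of the 3 tested miRNAs of the endothelium and vessel wall list was called, with 2 above both control libraries, beside the same shares over all. Neither was any of the 2 oligodendrocyte or 2 muscle miRNAs tested, beside 0.237% called in each direction over all 422. In bulk tissue, more cells of a type and more RNA per cell cannot be told apart.

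**Figure D2:**
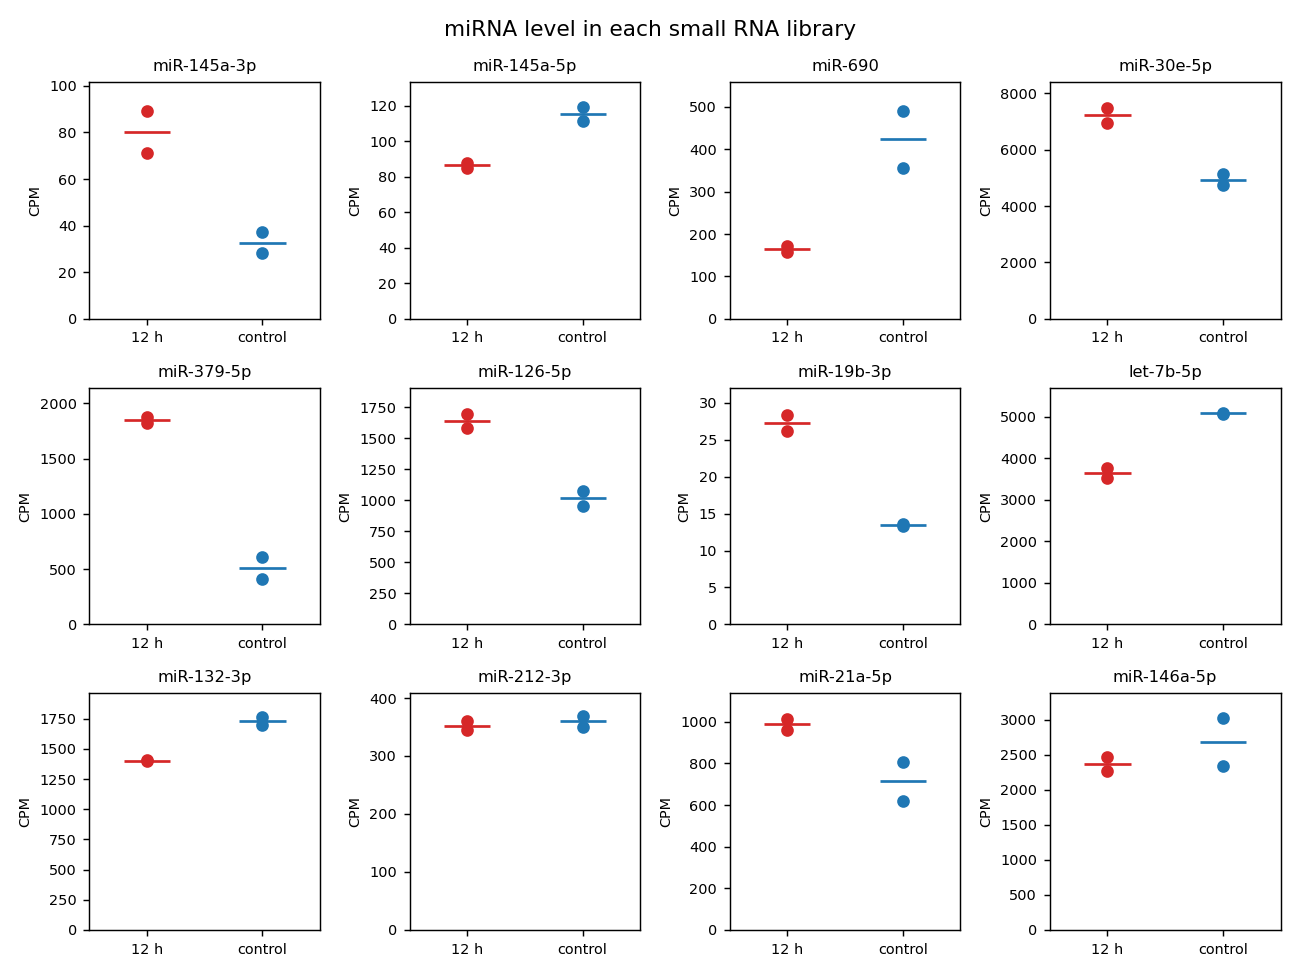
CPM of 12 miRNAs in each library, with 12 h libraries (red, n = 2) left of control libraries (blue, n = 2) and a bar at each mean. miR-145a-3p is higher and miR-145a-5p lower at 12 h without overlap, while miR-212-3p and miR-146a-5p overlap.

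Both arms were tested for 113 hairpins, and in 19 of them one arm was above and the other below both control libraries, against 6 with both arms above and 9 with both below. Over all 422 miRNAs 22.5% were above and 27.7% below without overlap, so the count of opposite arms alone shows nothing particular to hairpins. The 5p arm of miR-145a had 85.1 and 88.0 CPM at 12 h, against 112 and 119 CPM in control, while its 3p arm (miR-145a-3p, above) was higher. The 3p arm made up 48.1% of both arms' mean level at 12 h, against 22.0% in control. The 3p arm of miR-379 had 133 and 127 CPM at 12 h, against 142 and 131 CPM in control, so the higher level of that hairpin was in its 5p arm. The 3p arm of miR-30e had 1301 and 1405 CPM at 12 h, against 1742 and 1736 CPM in control, opposite to its 5p arm. The median size of the difference between arms was 0.41 on the log2 scale, and 6 hairpins differed by at least 1. The difference between arms was not tested.

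**Figure D3:**
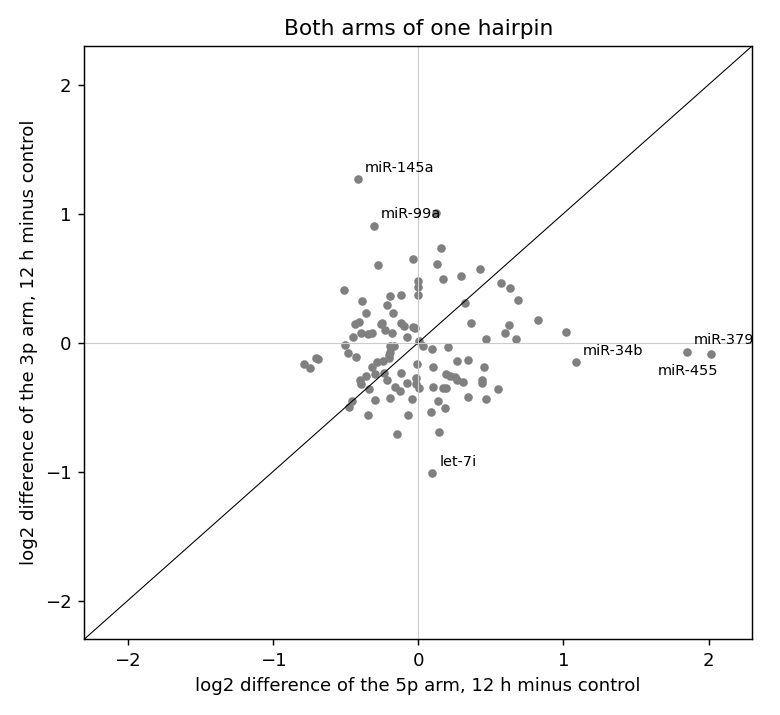
Log2 difference (12 h minus control) of the 3p arm (vertical) against that of the 5p arm (horizontal) for 113 hairpins, with the line of equal difference. miR-145a lies above the line at -0.42 and 1.26, and miR-379 lies at 1.85 and -0.07.

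Names matched RefSeq for 361 of the 422 tested miRNAs, and only these were sorted by seed. Among 12 seed families with at least 3 matched members, 7 had differences in both directions and 5 had all matched members one way. A family counted as one way can have unmatched members that went the other way. Of 9 miRNAs with the let-7 seed, 4 had a log2 difference above 0 and 5 below, between -0.48 (let-7b-5p) and 0.27 (let-7g-5p). let-7c-5p had 21554 and 18942 CPM at 12 h, against 27344 and 27396 CPM in control, and did not overlap. let-7f-5p had 25521 and 24558 CPM at 12 h, against 22553 and 24604 CPM in control, and did overlap. The 3 miR-29 members were all above both control libraries, with log2 differences between 0.15 and 0.46. The 4 matched miRNAs with the miR-30 seed had differences between 0.07 and 0.55. miR-30d-5p, which was not matched, had 25506 and 26090.3 CPM at 12 h, against 29344 and 29784 CPM in control. The 4 miR-181 members lay between -0.47 and -0.04, and miR-181a-5p, the most abundant, had 105486 and 86891 CPM at 12 h, against 137582 and 128069 CPM in control (adjusted p = 0.138 by edgeR). None of these members had an adjusted p under 0.05 by edgeR.

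The other miRNA lists also held no call, beside 0.237% called in each direction over all 422. Their non-overlapping members are read beside 22.5% above and 27.7% below over all 422. Non-overlapping members were 6 above and 8 below of 18 for let-7 and miR-98, 5 and 5 of 17 for miR-29 and miR-30, and 2 and 3 of 12 for miR-99, miR-100, miR-10 and miR-125. For the miR-17-92 family they were 1 and 2 of 9, with a median log2 difference of -0.16, and for the miR-23, miR-27, miR-24, miR-221 and miR-222 list 1 and 4 of 11, with a median of -0.24. For miR-15, miR-16 and miR-195 they were 1 and 2 of 8, and for miR-34, miR-449 and miR-22 they were 2 and 0 of 7. miR-153-3p, which neurons express, had 349 and 417 CPM at 12 h, against 197 and 264 CPM in control, a log2 difference of 0.73 that did not pass (adjusted p = 0.117 by edgeR).

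For messenger RNA the authors' deposited table gives, per transcript, an average signed fold and an average q-value for 12 h with control. In these a fall is negative, and 0 is taken to mean that no fold was given. Genes were called when the average q was below 0.05 and the average fold reached 1 in size, in either direction. If the folds are signed ratios, 1 or -1 stands for no change, so this limit sets no minimum change. An average between -1 and 1 would then come from folds of opposite sign or from missing folds, not from a small change. Of all genes in the authors' deposited table, 1704 were higher (10.2% of 16783 with a fold), 1255 were lower (7.48%) and 719 passed the average q with a smaller average fold and are called mixed here. The median average fold of all genes in the authors' deposited table was 0.557, with 9672 above 0 and 7111 below. The lowest average q, 1.21e-15, was shared by 110 genes and does not rank them. A mean of signed folds can be set by 1 of the values behind it, and an average q can be raised by 1 high value. No value per library was used, so no error stands beside these folds.

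The 12 largest rises among genes at that lowest average q, with all rows called one way, follow. Smox, spermine oxidase of polyamine breakdown (chr2:131317598-131350919, plus strand of mm9), had an average fold of 211 in the authors' deposited table. Ttr, the thyroid hormone carrier made by choroid plexus (chr18:20823751-20832825, plus strand), had 179 in the authors' deposited table. In the same authors' deposited table Smad9, a mediator of BMP signals, had 60.2, the kinase Cdk18 39.9, the dynein regulator Ndel1 35.3 and the ephrin ligand Efnb2 32.7. The BMP antagonist Nbl1 at 19.1, the mitochondrial BCL2 relative Bcl2l13 at 20.5 and the PGC-1-related coactivator Pprc1 at 17.5 rose too in the authors' deposited table. So did 1700021K19Rik at 23.6, Sft2d2 at 20.8 and Zfp329 at 15.4 in the authors' deposited table.

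The 12 largest falls were taken by the same limits, so genes with a higher average q, such as Hes5 below, can have a larger fall. The nuclear receptor Rorb (chr19:19011058-19185686, minus strand) had an average fold of -84.2 and the F-box gene Fbxw4 -74.2 in the authors' deposited table. In the authors' deposited table Slc12a9, of the cation-chloride cotransporter family, had -48.1, Dhdh -31.5 and the transcription factor Myc -29.2. Neurod1, a proneural transcription factor, had -8.78 and the growth factor Fgf10 -13.1 in the authors' deposited table. Hadha of mitochondrial fatty acid oxidation had -9.25 and the fatty acid transporter Slc27a4 -8.88 in the authors' deposited table. Ndnl2 at -20.9, Anapc4 of the anaphase-promoting complex at -16.9 and Robld3 at -9.60 completed these 12 falls in the authors' deposited table.

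Fos, Npas4, Arc and Egr1, transcription factors and a synaptic regulator induced by firing, were called higher at 1 h and 6 h and not at 12 h. The authors' deposited table holds 1 h and 6 h comparisons for which the labels list no library, and whether they share controls with 12 h is not given. A set of 20 genes was fixed with earlier results of these data known, so its counts are a description and not a test. By the authors' deposited table, 15 of the 20 were called higher at 1 h, 15 at 6 h, 4 at 12 h, 3 at 10 d and 4 at 6 wk. The shares of all genes called higher were 11.5%, 5.39%, 10.2%, 7.85% and 9.63%. Lower were 1, 0, 0, 0 and 1 of the 20 at these times in the authors' deposited table, against 16.6%, 9.12%, 7.48%, 11.3% and 12% of all genes. The 1 h averages have the form of means of 2 pairs and the later ones of 4, so the same limits are not alike at 1 h. Fos had average folds of 61.7 at 1 h, 193 at 6 h and 11.7 at 12 h in the authors' deposited table, the last with an average q of 0.254. Npas4 had 55.2, 52.0 and 2.43 at these times in the authors' deposited table, and Arc, which acts at synapses, 20.8, 16.4 and 0.409. Egr1 had 9.28, 14.3 and -0.0185 in the authors' deposited table, with an average q of 3.28e-10 at 12 h that counts it among the mixed genes. Fosb, a Fos relative, had 62.6, 159 and 5.10, and Junb, its partner, 12.5, 17.7 and 1.05, in the authors' deposited table. Nr4a1, a nuclear receptor, had 13.1, 20.7 and -1.34 at the same times in the authors' deposited table. The differences between times were not tested.

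The 4 of these genes that were higher at 12 h were Bdnf, Gfap, Fkbp5 and Ptgs2. Bdnf, a neurotrophin, had an average fold of 2.95 (average q 0.00101) in the authors' deposited table, after 7.31 at 6 h. Gfap, the astrocyte filament gene, had 2.83 (average q 1.21e-15) in the authors' deposited table. Fkbp5, a target of the glucocorticoid receptor, had 9.47 (average q 4.39e-05) and Ptgs2, the inducible cyclooxygenase, 5.27 (average q 0.00109) in the authors' deposited table. Atf3 had -79.4 with an average q of 0.409 in the authors' deposited table, so a large average fold alone did not make a call. Nptx2, a secreted pentraxin of excitatory synapses, had 6.56 and Gadd45b, a stress-induced growth arrest gene, 5.43 at 12 h in the authors' deposited table, and neither was called. Crem, a cAMP-responsive transcription factor, had 10.2, Inhba, the activin A subunit, 0.708 and the phosphatase Dusp1 1.78 at 12 h in the authors' deposited table, again without a call. Hmox1, the inducible haem oxygenase, had -8.79, the GABA-synthesising Gad1 0.739 and the microglial Aif1 1.03 at 12 h in the authors' deposited table, and none of these 3 was called.

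**Figure D4:**
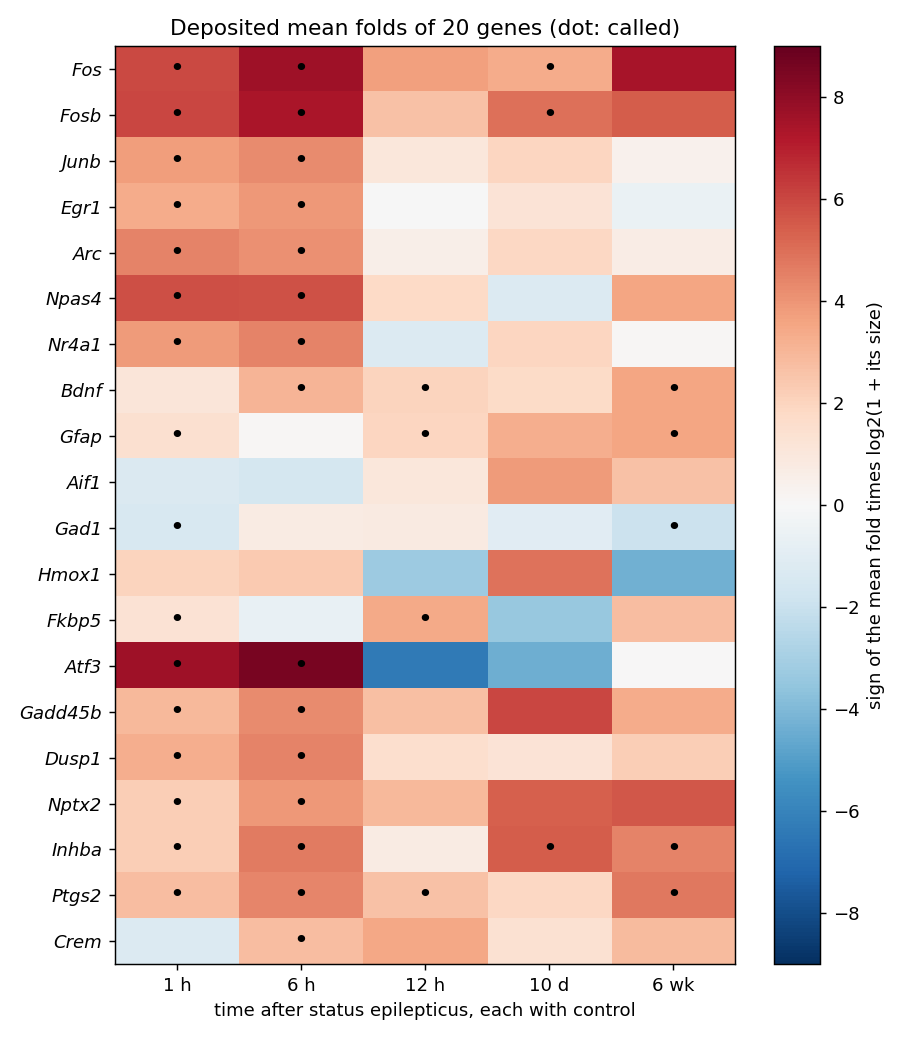
Mean folds of 20 genes (rows) at 1 h, 6 h, 12 h, 10 d and 6 wk (columns), each with control, from the authors' deposited table, coloured by the sign of the fold times log2 of 1 plus its size. Dots mark called genes: 15 are higher at 1 h and at 6 h, and 4 at 12 h.

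Effectors that follow the early factors include secreted and synaptic proteins. Of 27 late-response genes the authors' deposited table had 7 higher and 0 lower, against 10.2% higher and 7.48% lower over all genes, with a median average fold of 2.59 against 0.557. Vgf, a secreted neuropeptide precursor, had 2.99 (average q 4.95e-14) in the authors' deposited table. Homer1 had an average fold of 14.5 (average q 4.26e-07) for its shorter transcript (chr13:94074450-94126785, plus strand) in the authors' deposited table, against 3.19 and 3.48 (average q 0.0674 and 0.121) for its longer transcripts, which reach 94174917. The shorter transcript had 6.50 at 1 h and 27.1 at 6 h in the authors' deposited table. Reads in shared exons can count for each transcript. Of 1647 genes whose transcript rows differ in the authors' deposited table, 267 had some rows called and others not, and 1, Pwwp2a, had rows called both ways (1.73 and -1.84).

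MAP kinase phosphatases and other signal feedback genes had the highest share called higher of the 24 gene lists. Of 23 such genes the authors' deposited table had 9 higher and 1 lower (39.1% and 4.35%), against 10.2% and 7.48% of all genes, with a median average fold of 3.14 against 0.557. The phosphatase Dusp14 had 151 (average q 6.33e-15), Dusp7 6.22 (average q 1.61e-07) and the EGF receptor inhibitor Errfi1 14.1 (average q 2.62e-08) in the authors' deposited table. Rcan2, a calcineurin regulator, had -3.68 in the authors' deposited table. Of 19 glucocorticoid-responsive genes, the authors' deposited table had 6 higher (31.6%) and 0 lower beside the same background, with a median of 2.54. The metallothionein Mt1 had 2.54 and the cell cycle inhibitor Cdkn1a 19.0 (average q 1.16e-12) in the authors' deposited table.

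Chromatin genes and Notch genes followed. Of 32 histone and DNA modifying enzymes the authors' deposited table had 8 higher and 3 lower (25.0% and 9.38%), against 10.2% and 7.48% of all genes, so the share lower was near that of all genes. All 3 TET genes, whose products oxidise methylated cytosine, were higher in the authors' deposited table: Tet3 had 3.31, Tet2 6.07 and Tet1 2.85. The deacetylase Hdac4 had 7.59 and the demethylase Kdm6a -7.05 in the authors' deposited table. Of 23 Notch and Id genes the authors' deposited table had 5 higher and 1 lower (21.7% and 4.35%), with Id2 at 5.11, Notch3 at 23.4 and the Notch target Hes5 at -142.

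Calcium-dependent kinases, splicing regulators and cell death genes had members called both ways. Of 23 calcium-dependent kinases and partners the authors' deposited table had 4 higher and 7 lower (17.4% and 30.4%), against 10.2% and 7.48% of all genes, with a median of -0.792 against 0.557. The synaptic kinase subunit Camk2b had -1.40 and calmodulin Calm2 -1.79, while the inhibitor Camk2n1 had 2.28 in the authors' deposited table. Of 21 splicing regulators found under their listed symbols, the authors' deposited table had 4 higher and 5 lower (19.0% and 23.8%), among them Celf4 at 2.18 and Nova2 at -2.01. Of 26 BCL2 family genes and caspases, the authors' deposited table had 2 higher and 5 lower (7.69% and 19.2%), with the initiator caspase Casp9 at -5.25, the anti-apoptotic Bcl2l1 at -1.82 and the pro-apoptotic Bid at -50.0. Of 16 proneural genes with a fold, the authors' deposited table had 3 higher and 3 lower (18.8% each), with the cortical factor Tbr1 at 5.15, Neurod2 at 1.77 and Sox4, a factor of immature neurons, at -5.79.

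The inflammatory lists are read beside 10.2% of all genes higher and 7.48% lower. Of 22 NF-kappaB genes with a fold the authors' deposited table had 0 higher and 0 lower, with average q between 0.0746 and 0.887. The authors' deposited table had 1 of 27 interferon genes higher, Ifnar2 at 41.3. Of 26 JAK and STAT genes the authors' deposited table had 3 higher and 1 lower (11.5% and 3.85%), near the share of all genes, with the transcription factor Stat3 at 8.16 (average q 3.84e-12). Microglial markers were mixed in the authors' deposited table: of 16, 2 were higher and 3 lower (12.5% and 18.8%), with Ptprc at 13.7 and Tmem119 at -3.34.

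The other 12 lists are given by their counts, beside 10.2% higher and 7.48% lower over all genes. In the authors' deposited table, higher and lower members were 2 and 3 of 21 for oxidative stress, with Gsta4 at -9.42 and Srxn1 at 3.75, and 2 and 0 of 18 for p53 and growth arrest. They were 3 and 4 of 29 for the Wnt pathway and 4 and 2 of 26 for actin genes in the authors' deposited table. They were 4 and 2 of 23 for tubulins and neurofilaments and 3 and 2 of 23 for glycolysis in the authors' deposited table, where Pfkp, a phosphofructokinase subunit, had 2.18. They were 3 and 1 of 24 for cAMP enzymes, with the phosphodiesterase Pde4a at 4.20, and 2 and 2 of 30 for translation factors, with Eef1a1 at -2.11, in the authors' deposited table. They were 5 and 3 of 39 for axon guidance and 4 and 1 of 32 for monoamine and acetylcholine receptors, with Htr2c at 4.14, in the authors' deposited table. They were 2 and 3 of 21 for endocannabinoid and prostaglandin genes and 2 and 3 of 32 for growth factors, with Hbegf at 10.8 and Igfbp5 at -1.94, in the authors' deposited table.

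**Figure D5:**
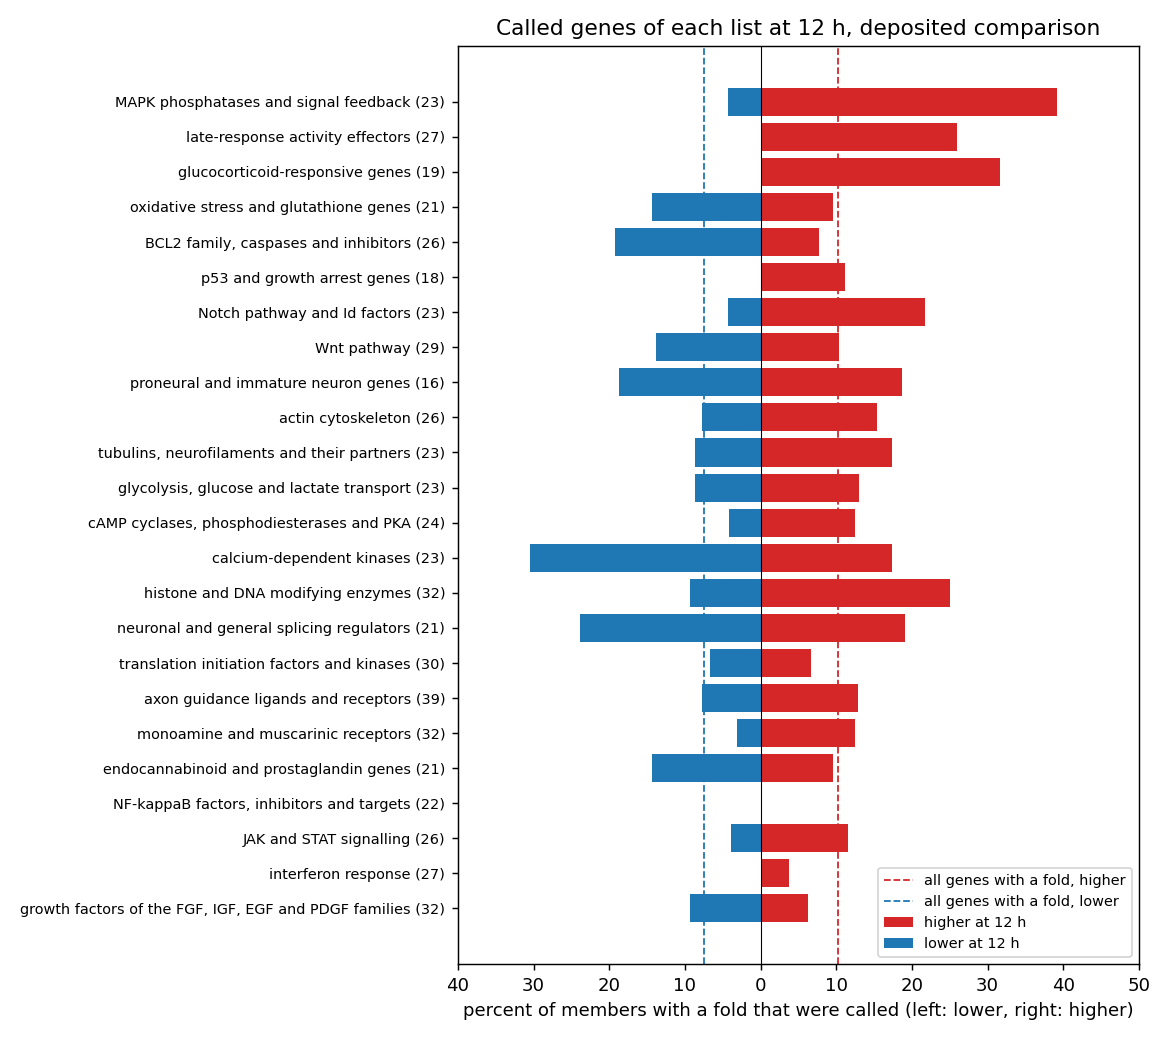
Percent of each list's members with a fold (number in brackets) that were called lower (blue, left) or higher (red, right) at 12 h in the authors' deposited table, with dashed lines at 7.48% and 10.2% for all genes. MAP kinase phosphatases and signal feedback genes reach 39.1% higher and calcium-dependent kinases 30.4% lower.

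Some markers of choroid plexus and some Y-linked genes were called too. Of 12 choroid plexus markers the authors' deposited table had 3 higher (25.0%, against 10.2% of all genes), Ttr, Prlr at 34.6 and Kl at 32.5. The average fold was above 0 for 9 of the 12 in the authors' deposited table, with a median of 4.24 against 0.557 over all genes, and among the uncalled Folr1 had -0.174, Otx2 0.185 and Cldn2 1.03. All 4 Y-linked genes had negative average folds in the authors' deposited table, and 2 were called lower (50.0%, against 7.48% of all genes). In the authors' deposited table these were Ddx3y at -65.8 and Eif2s3y at -65.9 (average q 0.00865 and 0.0116), while Uty had -16.8 and Kdm5d -0.145. At 1 h Ddx3y had 679 in the authors' deposited table. The sex of the pooled animals is not given, so for these genes a difference in sex between the pools and a difference between 12 h and control cannot be told apart. Of 14 markers of hippocampal pyramidal and granule neurons the authors' deposited table had 3 higher and 3 lower (21.4% each). Of 13 of striatum and thalamus the authors' deposited table had 0 higher and 1 lower (7.69%). Over all genes 10.2% were higher and 7.48% lower, so the share of striatum and thalamus markers lower was near that of all genes. The part of these markers in the other results was not tested. Of the genes with a fold, 4713 (28.1%) shared both fold and q with another gene in the authors' deposited table, but only 2 of the 2959 called genes did. Among called genes of the authors' deposited table, 532 had an average fold of 20 or more in size, and the depth behind them is unknown.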

How the data were processed

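Poly(A) RNA and small RNA of mouse hippocampus were compared at 12 h and in control. Reads of poly(A) libraries were mapped to mm9 with Bowtie, and reads with a unique place were counted in the exons of RefSeq genes, both per the series' design text. The authors deposited average signed folds, treated here as a score, and average q-values per transcript. No source used here says how these were made. Times 4, 100.0% of 12 h folds were whole millionths within 0.02, as for means of 4 pairs. At 1 h 100.0% were so times 2, as for means of 2 pairs. The authors also deposited raw tag counts per mature miRNA. No source used here gives the preparation of the small RNA libraries, and columns were assigned by the time in their names. The table's 24 other library columns stayed out.

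A gene was represented by its first row in the table (96 of 29208 rows named no gene). Tag counts were tested with edgeR 4.0.16 (R 4.3.3) over all 8 libraries with TMM, filterByExpr and the quasi-likelihood test, with Benjamini-Hochberg adjustment. SE was the log2 difference over the root of F. DESeq2 1.42.0 was an alternative. The edgeR steps for miRNAs were tested on simulated counts, and the mRNA steps were not. No source says which animals the small RNA libraries came from, so p-values reflect only how these libraries vary. No set tests were run. Gene starts are printed as the table's value plus 1, since 8745 transcripts then matched the mm9 annotation, against 691 as written.

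Members and lists were chosen with earlier results of these data known. Named were all called miRNAs and list members described, the 12 largest rises and falls at the lowest average q with all rows one way, up to 4 called members of each of 24 lists by average q, and 20 fixed genes. Tet1, Pwwp2a, the 6 miRNAs with an adjusted p between 0.05 and 0.1, and the marker lists of choroid plexus, microglia, neurons and Y-linked genes with the members named from them were chosen after their values were seen. No mRNA value per library was used, so no library could be left out there. Some members counted in the lists are not reported here by name. The closing section gives the alternatives.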

Additional observations from a re-analysis of the deposited data

Results flagged for a closer look

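In the edgeR fit over all 8 small RNA libraries, 12 miRNAs differed between 12 h and 10 d at an adjusted p under 0.05, 11 of them lower at 12 h (2.61% of those tested) and 1 higher (0.237%), a test of the difference between these times. miR-146a-5p had 2268 and 2468 CPM at 12 h, against 8789 and 10129 CPM at 10 d, a log2 difference of -1.997. The log2 difference was -1.37 for miR-142-5p, -1.44 for miR-21a-5p, -1.97 for miR-10a-5p, -1.09 for miR-145a-5p and -0.64 for let-7b-5p. It was -1.13 for miR-15b-5p, -0.59 for miR-132-3p, -0.68 for miR-23a-3p, -0.65 for miR-212-3p and -1.65 for miR-455-3p, and 0.92 for miR-153-3p. None of the 12 was called at 12 h against control.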

How the results depend on the processing

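The counts of miRNAs called at 12 h (1 higher, 1 lower) changed with most settings. Called higher were 12 with library totals, 23 with no low-count filter, 3 with only the 12 h and control libraries and 9 by DESeq2. Called lower were 2 with no filter and 4 by DESeq2. Leaving out 1 library gave 0 to 1 in each direction. The count for 12 h against 10 d was 12. Alternatives added after seeing the data gave 26 with no filter (all 12 among them), 21 by DESeq2 (10 among them) and 4 to 9 with 1 library left out. Of the 9 without 10 d library 3, 5 were among the 12. DESeq2 gave no adjusted p for 6 of the 34 named miRNAs, miR-145a-3p among them. The cause was not tested.

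Of the named miRNAs that were not called, 5 passed with library totals, 6 with no filter, 2 with only the 12 h and control libraries and 7 by DESeq2, in the same direction. The following uncalled log2 differences changed sign. For miR-212-3p the value was 0.108 with library totals, 0.0547 with no filter and 0.0109 by DESeq2, and -0.0843 to 0.0183 with 1 library left out. With library totals miR-124-3p had 0.0394 and miR-9-5p 0.0237, and with 1 library left out they had -0.280 to 0.0948 and -0.248 to 0.0202. With 1 library left out the range was -0.15 to 0.34 for miR-143-3p, -0.370 to 0.0260 for miR-146a-5p, -1.36 to 2.18 for miR-155-5p, -0.732 to 0.0415 for miR-10a-5p and -0.0415 to 0.266 for miR-451a. The mRNA counts (1704 higher, 1255 lower) stayed between 1259 and 1771 and between 887 and 1303 under the 5 alternatives run. No paired analysis was run because the labels give no pairing between the libraries of the groups.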
